A study of Papio hamadryas with 4 samples.

Results

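Type I interferon stimulated genes are described here in baboon kidney through 9 genes: ISG15, IFIT1, IFIT3, OAS1, MX1, IFI27, IFI44, IFI44L and IFI6. They were taken by gene symbol from the annotation of the array, which gave 15 probes, out of 18774 genes that carry 1 symbol on the array. The kidney biopsies came from Papio hamadryas of 2 phenotypes labelled NSLC, for normal SLC, and HSLC, for high SLC. The labels leave SLC unexplained, and the study's title speaks of blood pressure phenotypes. Low and high sodium diets were each given for 6 weeks. That makes 4 groups (each phenotype on each diet) with 1 array each. The ages of the animals, their number behind an array and the order of the diets are not stated in the labels, and no other allele or agent is named for any group. The RNA was hybridised to Illumina bead arrays designed on human genes, and the differences reported are ratios of 1 array over another, with no replicate to give an error.

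Type I interferons, the alpha and beta interferons among them, bind the receptor made of IFNAR1 and IFNAR2. The receptor's kinases JAK1 and TYK2 then activate the factor ISGF3, which contains IRF9 and switches on antiviral genes through a promoter element called the ISRE. In the kidney these genes are known to be induced in viral infection and in lupus nephritis.

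Across the genes, 1 member stood out. ISG15 was 3.06-fold higher in HSLC than in NSLC on low sodium, and no other member reached 2-fold in any of the 4 comparisons of 1 array with another. In the same low sodium comparison all 13 skeletal muscle markers were at least 2-fold higher in HSLC, where 0.283% of all genes were. The part of muscle tissue in the ISG15 ratio was not tested. On high sodium against low sodium, IFI44 rose by 0.36 on the log2 scale and the brightest OAS1 probe fell by 0.58. In the wider pathway, HERC5, which attaches ISG15 to target proteins, was at a log2 ratio of 1.03 for HSLC over NSLC on low sodium. That ratio was below 2-fold in 3 of 10 settings. Of 25 other interferon stimulated genes tested, 12 rose on high sodium (4 to 14 over the settings), where 8.72% of all genes rose and where macrophage, smooth muscle and fibroblast markers rose too.

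A gene was called detected on an array when its deposited intensity was above the median of all probes on that array, which was 77.7 on low and 79.5 on high sodium in NSLC, against 72.1 and 68.2 in HSLC. By that rule 6 of the 9 genes were detected on all 4 arrays, MX1 on 2 arrays, and IFIT3 and IFI6 on none. Of all 18774 genes, 11909 were detected on all 4 arrays. Of the 15 probes, 7 were detected on all arrays and 6 on none. By its definition the median leaves about as many probes of an array below it as above it. All 11 proximal tubule markers used were detected on every array. Fewer cells of a type and less RNA per cell cannot be told apart in these bulk samples.

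**Figure D1:**
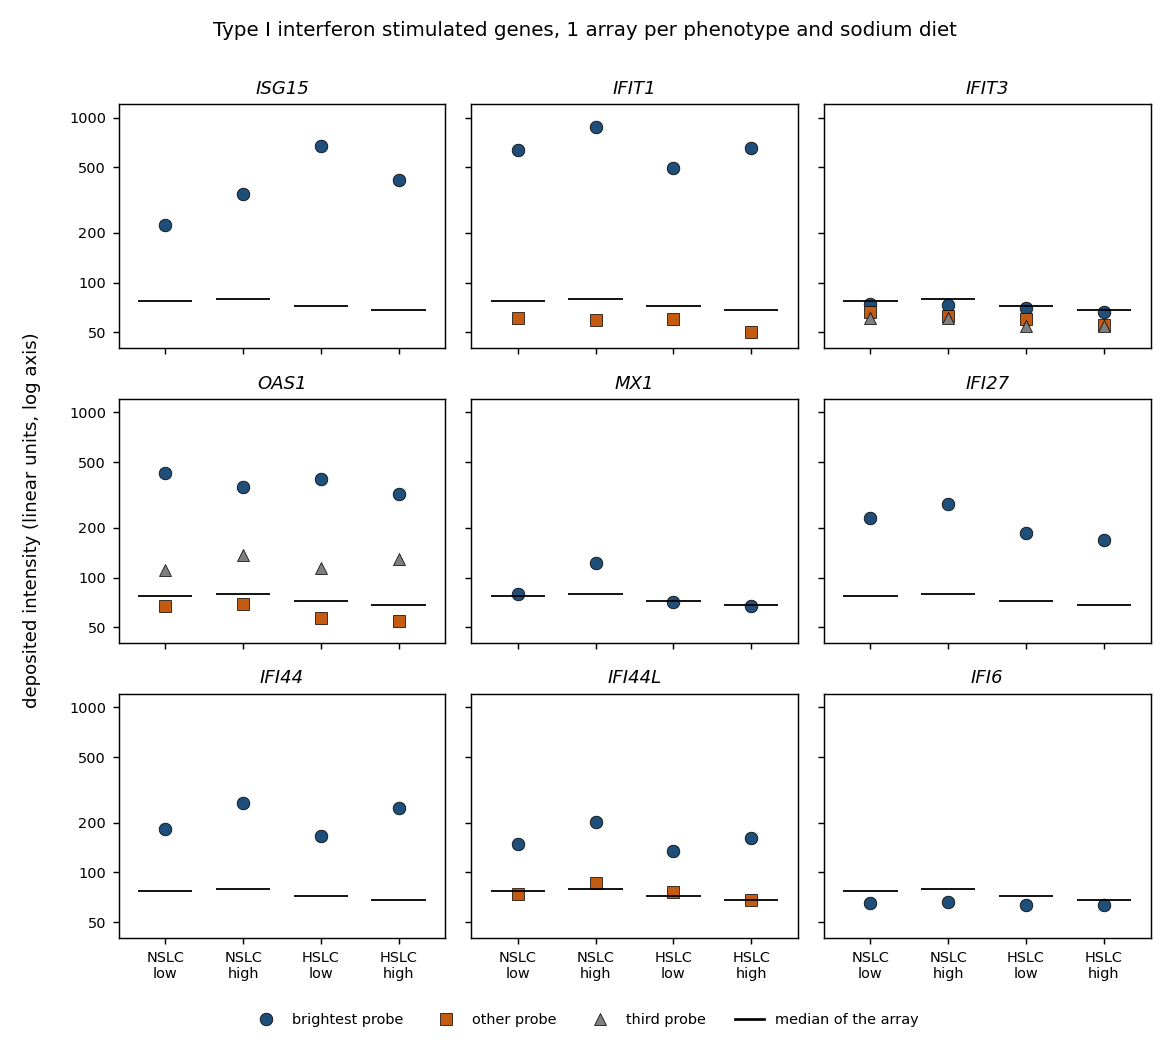
Deposited intensity (linear units on a log axis) of every probe of the 9 genes on the 4 arrays, with the median of each array as a black line. Circles are each gene's brightest probe, squares and triangles its other probes. ISG15 is highest in HSLC on low sodium (669), while IFIT3 and IFI6 lie below the array median throughout.

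ISG15 is a ubiquitin-like protein that is joined to other proteins during the interferon response. Its only probe, ILMN_1813289, read 223 on low and 343 on high sodium in NSLC, against 669 and 417 in HSLC. HSLC on low sodium was the highest sample, and both HSLC samples were above both NSLC samples. On the normalized log2 scale the 4 levels were 7.92, 8.16, 9.54 and 8.72 in the same order. The order of the levels was therefore HSLC low, HSLC high, NSLC high and NSLC low sodium. Neighbouring levels were 0.82, 0.56 and 0.24 apart on that scale.

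The ratio of HSLC to NSLC in ISG15 was 1.61 on the log2 scale on low sodium and 0.56 on high sodium. Its diet ratio was 0.24 in NSLC and -0.82 in HSLC, which are of opposite sign, and their difference was -1.06. The spread that 2 probes of a gene give can be set beside these values. Over 515 genes with 2 bright probes, the standard deviation of a ratio between probes was 0.15 for the phenotypes on low sodium, 0.20 on high sodium, 0.21 for the diets in NSLC and 0.17 in HSLC. The first of these spreads is exceeded 10.8 times by the low sodium ratio of ISG15, and the NSLC diet ratio is 1.12 times its own. This spread covers neither the animals nor the biopsies.

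What the phenotypes share across the diets, and the diets across the phenotypes, was tested with limma in a model without interaction. The model leaves 1 residual degree of freedom per gene, with an error moderated over all genes. It holds no replicate animals, so its p-values rest on how far the 2 ratios of an effect differ. ISG15 was higher in HSLC by 1.08 on the log2 scale (SE 0.17, adjusted p = 0.0026 in limma, higher in HSLC on 2 of 2 diets). It ranked at place 15 from the top among 11909 genes tested. Of all genes, 0.823% were called higher and 2.82% lower in HSLC. In the alternatives the adjusted p of ISG15 ran from 9.55e-08 to 0.0449 over the other scalings and filters, except without the detection filter, where it was 0.197. The shared diet effect on ISG15 was -0.29 (adjusted p = 0.27), with opposite signs in the phenotypes.

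Skeletal muscle transcripts moved with this difference. All 13 skeletal muscle markers were at least 2-fold higher in HSLC than in NSLC on low sodium, with a median log2 ratio of 3.12. Their summed intensity was 19376 in HSLC on low sodium and 2458, 1696 and 1556 in NSLC low, NSLC high and HSLC high sodium. ISG15 ranked at place 21 of 12358 genes in that comparison, and 13 of the 21 genes down to that place were in the muscle list. The others were ISG15 itself and MYBPC1, EEF1A2, ENO3, KLHL41, PDLIM3, TMOD4 and DHRS7C. The 13 markers are not all the muscle genes on the array, so the count is no full count of muscle transcripts. A gene outside the list can be a muscle gene too, and the tissue origin of those named was not tested. The genes whose centred log2 values over the 4 arrays lay nearest to those of ISG15 were PDLIM7 (Euclidean distance 0.40), DES, the muscle intermediate filament desmin (0.49), FHL3 (0.51), ANXA10 (0.51), SLN, the sarcoplasmic reticulum regulator sarcolipin (0.58), and MYBPH (0.63). This list was added after the values were seen. On high sodium the muscle markers were alike in the phenotypes, with a median ratio of 0.08, and ISG15 was at 0.56 there. The part of muscle tissue in the low sodium ratio was not tested.

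**Figure D2:**
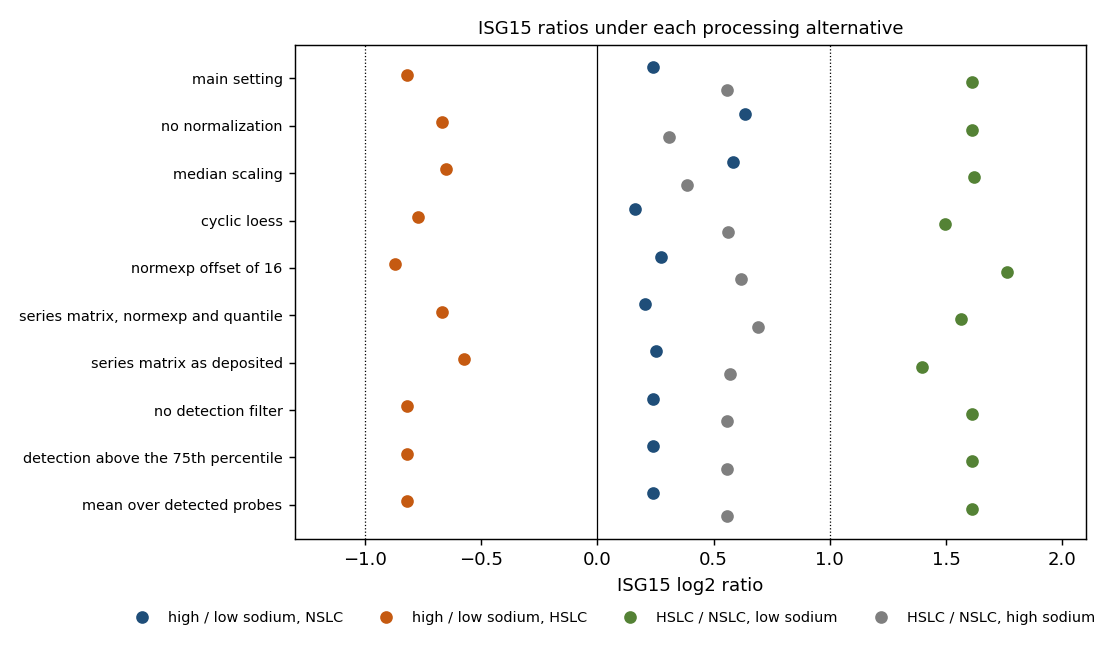
Log2 ratios of ISG15 in the 4 comparisons of 1 array with another (colours) under the main setting and 9 alternatives (rows). The low sodium ratio of HSLC over NSLC stays between 1.40 and 1.76, and the dotted lines mark 2-fold.

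Enzymes that conjugate ISG15 were measured beside it. HERC5, the ligase of ISG15 in human cells, read 180 on low and 346 on high sodium in NSLC, against 352 and 315 in HSLC. NSLC on low sodium was the low sample, and the other 3 were close to each other. The HERC5 ratio of HSLC to NSLC was 1.03 on low sodium and 0.16 on high sodium, and its diet ratio 0.61 in NSLC and -0.27 in HSLC. The low sodium ratio fell short of 2-fold with cyclic loess (0.89), with the series matrix as deposited (0.80) and, narrowly, without normalization. In limma HERC5 was higher in HSLC by 0.59 (SE 0.15, adjusted p = 0.0432), but that p passed the threshold of 0.05 in 4 of 10 settings and reached 0.334 without the detection filter.

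UBE2L6, the conjugating enzyme for ISG15, followed the diet instead. It read 314 on low and 582 on high sodium in NSLC, against 284 and 505 in HSLC. Both high sodium samples were above both low sodium samples, and UBE2L6 rose on high sodium by 0.55 (SE 0.10, adjusted p = 0.00224 in limma). With the mean over its detected probes it was at 0.20 (adjusted p = 0.189 in limma), and it was called in 9 of 10 settings. The activating enzyme UBA7 rose by 0.36 (adjusted p = 0.0253 in limma), a call that held in 4 of 9 settings. USP18, which removes ISG15 and dampens receptor signalling, was barely above the array median and was at 0.17 in NSLC and 0.05 in HSLC on the diet ratio.

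IFIT1 encodes a protein that binds viral RNA lacking the host cap modification. Its brighter probe read 635 on low and 872 on high sodium in NSLC, against 497 and 654 in HSLC. HSLC on low sodium was the lowest sample, the reverse of ISG15. The log2 ratio of HSLC to NSLC was -0.43 on low sodium and -0.09 on high sodium. The diet ratio of IFIT1 was 0.26 in HSLC and -0.08 in NSLC, but the NSLC value was above 0 in 4 of 7 scalings and reached 0.46 without normalization, where all genes had a median of 0.28. In limma IFIT1 was called for neither diet (0.09, adjusted p = 0.60) nor phenotype (-0.26, adjusted p = 0.21). The other IFIT1 probe lay below the array median on every array, between 50.1 and 61.0.

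IFIT3, the partner protein that stabilises IFIT1 on RNA, gave no detected value. Its 3 probes read between 54.3 and 73.8 over the 4 arrays, each below the median of its array. IFI6, a mitochondrial and endoplasmic reticulum protein, had 1 probe at 65.6 and 66.6 in NSLC and 63.7 and 63.8 in HSLC, low sodium first, also below the medians. At these levels no difference between samples can be read. Whether baboon sequence differs from these human probes was not tested.

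OAS1 makes the short adenylate chains that activate the RNA-degrading enzyme RNase L. Its brightest probe, ILMN_1658247, read 427 on low and 354 on high sodium in NSLC, against 393 and 320 in HSLC. Both low sodium samples were above both high sodium samples. The log2 diet ratio was -0.75 in NSLC and -0.41 in HSLC, and in limma OAS1 fell by 0.58 (SE 0.10, adjusted p = 0.0015). Without normalization that p was 0.359, with median scaling 0.145, and with the mean of its detected probes 0.195.

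The other detected OAS1 probe, ILMN_1675640, went the other way. It read 112 on low and 138 on high sodium in NSLC, against 114 and 129 in HSLC. Its normalized diet ratio was 0.21 in NSLC and 0.22 in HSLC, and over 7 scalings it ran from -0.04 to 0.32 in NSLC and from 0.18 to 0.30 in HSLC. The annotation ties the OAS1 probes to different transcript records of the gene, so no single direction can be given for it. The third OAS1 probe was below the median on every array. OAS2, a relative with the same enzyme activity, was named after its values were seen: it fell by 0.34 in limma (adjusted p = 0.0301), a call made in 4 of 10 settings.

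MX1, a dynamin-like protein that blocks viral replication, was near the detection limit. It read 79.7 on low and 123 on high sodium in NSLC, against 71.3 and 67.1 in HSLC. NSLC on high sodium was the only sample clearly above its array median, and both HSLC samples were just under theirs. The log2 diet ratio in NSLC was 0.57, between 0.23 and 0.90 over the alternatives. On high sodium MX1 was at least 1.53-fold lower in HSLC than in NSLC, with HSLC taken at the lowest level counted as detected. It was not tested in limma, which took genes detected on all arrays.

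IFI27, a small mitochondrial protein, read 228 on low and 280 on high sodium in NSLC, against 185 and 170 in HSLC. Both HSLC samples were below both NSLC samples, which is opposite to ISG15. The log2 ratio of HSLC to NSLC was -0.34 on low and -0.42 on high sodium, and in limma IFI27 was lower in HSLC by -0.38 (SE 0.09, adjusted p = 0.0321). That call was made in 5 of 10 settings, and the p reached 0.239 without normalization. Its diet ratio was -0.08 in NSLC and -0.15 in HSLC, and 0.30 in NSLC without normalization.

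IFI44 and IFI44L are neighbouring relatives in the human genome whose proteins restrain viral growth. IFI44 read 183 on low and 263 on high sodium in NSLC, against 167 and 244 in HSLC. Both high sodium samples were above both low sodium samples. Its log2 diet ratio was 0.22 in NSLC and 0.50 in HSLC, and in limma IFI44 rose by 0.36 (SE 0.10, adjusted p = 0.0218). The call was lost with cyclic loess (0.0657), with the series matrix as deposited (0.108) and without the detection filter (0.0837).

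IFI44L read 149 on low and 201 on high sodium in NSLC, against 135 and 162 in HSLC, in the same order as IFI44. Its log2 diet ratio was 0.23 in NSLC and 0.27 in HSLC, and limma did not call it (0.25, adjusted p = 0.0743). Its other probe, matched to an expressed sequence tag, was within 1.09 times the array median everywhere and gave 0.20 in NSLC and -0.08 in HSLC.

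**Figure D3:**
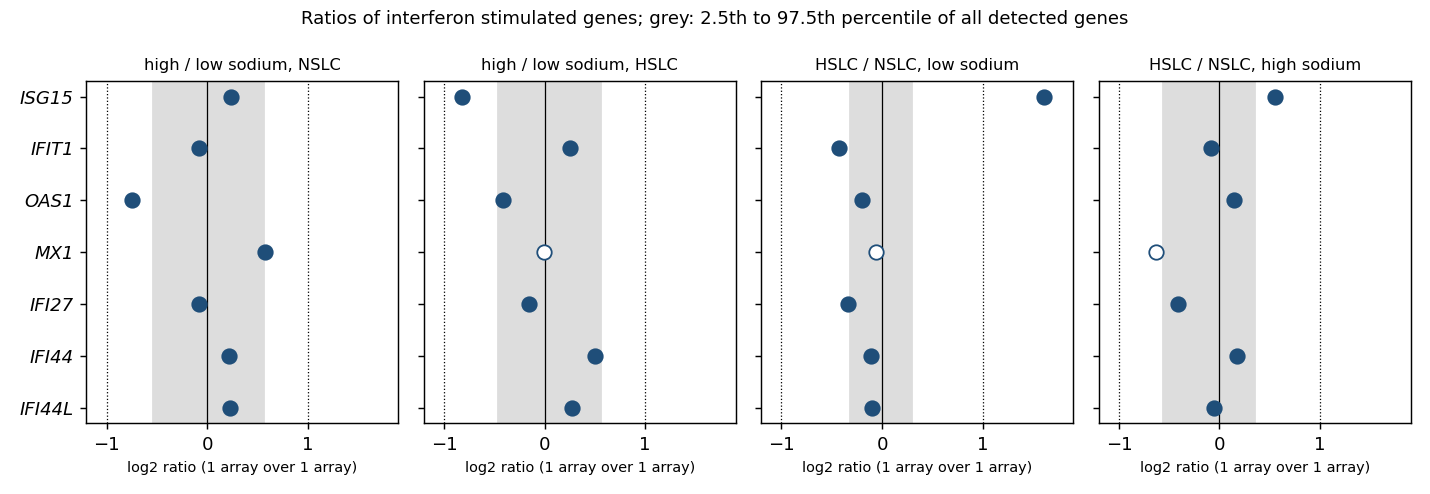
Log2 ratios of the 7 genes detected on at least 2 arrays in the 4 comparisons of 1 array with another. Filled points were detected on both arrays, open points on fewer, grey bands hold all detected genes but the outer tails named in the title, and dotted lines mark 2-fold. ISG15 at 1.61 on low sodium is the only point past 2-fold.

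Read as a set, the members did not move together. On high against low sodium, 4 of 7 detected members were above 0 in NSLC and 3 of 6 in HSLC, near the 56.4% and 52.6% of all detected genes. Their medians were 0.22 and 0.05 beside medians of 0.04 and 0.01 over all detected genes. Between the phenotypes, 1 of 6 was above 0 on low sodium, at a median of -0.15, and 3 of 6 on high sodium, at 0.04. Of all detected genes 50.8% and 56.1% were above 0 there, at medians of 0.003 and 0.02. Members at least 2-fold higher or lower numbered 0 in each diet comparison, where 0.509% of all genes were higher and 0.156% lower in NSLC, and 0.529% and 0.232% in HSLC. For HSLC against NSLC, 1 member was 2-fold higher on low sodium and 0 on high sodium, with 0.283% and 0.0959% of all genes higher and 0.0486% and 0.352% lower. On the difference of the diet ratios ISG15 was the 1 member past 2-fold, on the lower side, where 0.285% of all genes were, and 0.0672% were on the higher side. ISG15 fell short of 2-fold there with cyclic loess (-0.93), with the series matrix normalized like the main values (-0.87) and with it as deposited (-0.83). In limma 1 member rose with the diet, against 8.72% of all genes, and 1 fell, against 7.05%. The latter is OAS1 by its brightest probe, which its other detected probe does not follow. For the phenotype 1 member was higher and 1 lower in HSLC, against 0.823% and 2.82% of all genes.

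The mean centred profile of the 6 genes detected on all arrays had a range of 0.11 on the log2 scale, while that of ISG15 alone spanned 1.61. Without ISG15 the range of the other 5 was 0.23, and HSLC on low sodium was their lowest array at -0.12, against 0.06 with ISG15, where it was the highest. The genes outside the pathway lists nearest to the mean profile with ISG15 were EIF3K, PYDC2, TTR, PSKH1, HIPK2, NCOA1, CXCR3 and PCDH15, all within a distance of 0.02. Likeness was measured over 4 arrays only. The range of 0.11 is below the smallest spread between probes, 0.15, so these are genes that vary little. CXCR3 (6.23 to 6.33) and PYDC2 (6.32 to 6.44) lay near the lowest level counted as detected, 6.23 in HSLC, while EIF3K (11.20 to 11.31) did not.

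A wider list of 46 other interferon stimulated genes, 43 of which had a probe here, was read beside the members. In limma 12 of 25 tested genes rose and 1 fell, against 8.72% and 7.05% of all genes, and the count of those that rose was 4 to 14 over the alternatives, the lowest without the detection filter. IFITM2, an antiviral membrane protein, read 2468 on low and 5737 on high sodium in NSLC, against 2563 and 4129 in HSLC, and rose by 0.67 (SE 0.09, adjusted p = 0.000254 in limma). LY6E, a surface protein that limits coronavirus entry, rose by 0.65 (adjusted p = 0.0009). IFITM1 rose by 0.53 (adjusted p = 0.00155), the secreted LGALS3BP by 0.47 (0.00602), the scramblase PLSCR1 by 0.45 (0.00716) and the nuclear body protein SP110 by 0.44 (0.0153) in limma. IFITM2, LY6E and IFITM1 were called in all 10 settings, LGALS3BP and SP110 in 9 of 10, and PLSCR1 in 7 of 9.

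Of the wider list, 22 of 26 genes were above 0 on the diet ratio in each phenotype, where 56.4% of all genes were in NSLC and 52.6% in HSLC. Its median was 0.26 in NSLC and 0.16 in HSLC. Between phenotypes the median was -0.02 on low sodium and -0.03 on high sodium, and 0 of 25 genes were called in limma. With 0.823% of all genes called higher and 2.82% lower in HSLC, 0 of 25 is near these shares and shows nothing about the list. Macrophage and monocyte markers moved with the diet as well: 8 of 10 tested rose in limma, against 8.72% of all genes. Their summed intensity was 3316 and 3554 on low sodium and 6918 and 6809 on high sodium, NSLC first. Lysozyme (LYZ) rose by 1.39 (adjusted p = 1.63e-06 in limma). Smooth muscle and fibroblast markers also moved with the diet. Here 8 of 9 rose, against 8.72% of all genes, and 8 did in each of the 10 settings. Their summed intensity was 9170 and 10196 on low sodium and 28281 and 20504 on high sodium, NSLC first. Of 11 proximal tubule markers 9 fell, against 7.05% of all genes, at a median of -0.52, but 0 to 10 over the settings. Summed, these markers read 15094 and 13906 on low sodium and 17931 and 10277 on high sodium. The part of these cells in the rise of the wider list was not tested.

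**Figure D4:**
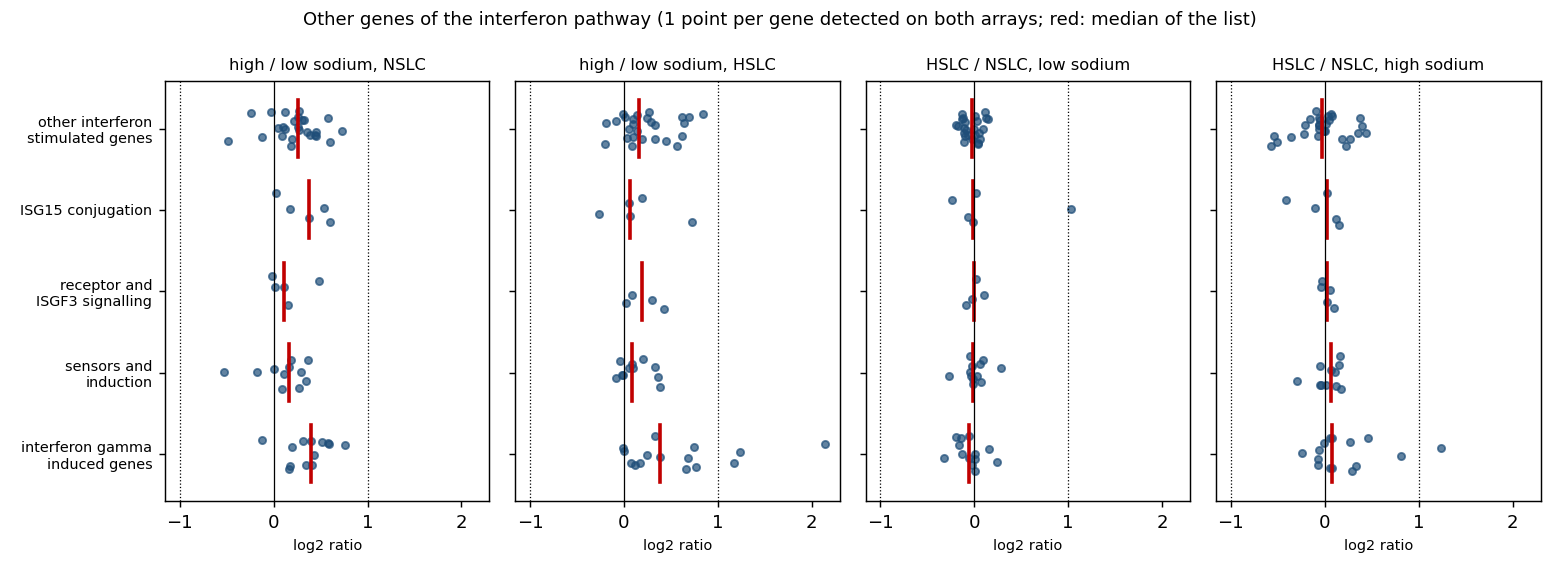
Log2 ratios of other interferon pathway genes in the 4 comparisons of 1 array with another, 1 point per gene detected on both arrays, with the median of each list in red and 2-fold as dotted lines. On the diet ratios the wider interferon list and the interferon gamma list lie to the right of 0, and HERC5 is the single conjugation gene past 2-fold between phenotypes on low sodium (1.03).

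Upstream of these genes, most of the ligands were not detected. Of 17 type I interferon genes, 15 were detected on no array, IFNB1 among them, while IFNA16 and IFNA21 were near the array medians, with ratios within 0.11. On all 4 arrays 1 of the 17 was detected, against 11909 of 18774 genes of the array. JAK1 rose on high sodium by 0.45 (adjusted p = 0.00346 in limma), whereas IFNAR1 (0.09), IFNAR2 (0.05) and TYK2 (0.21) were not called. IRF9 was detected on 3 arrays and was not tested.

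Among 11 tested sensors and inducers, 2 rose and 0 fell in limma, against 8.72% and 7.05% of all genes: IFIH1, the cytosolic RNA sensor MDA5, by 0.34 (adjusted p = 0.0206) and STING1, the adaptor for cytosolic DNA, by 0.31 (0.0286). Over the settings 0 to 4 of this list rose and 0 to 1 fell. IFIH1 was called in 8 of 10 settings, and STING1 in 5, with 0.17 in the series matrix as deposited. IRF7, the interferon-induced factor that amplifies interferon transcription, was at -0.53 in NSLC and -0.09 in HSLC (adjusted p = 0.0663), and the kinase TBK1 at 0.36 and 0.10. The list of negative regulators also holds ISG15 and USP18. Of its 8 tested genes 1 rose and 1 fell in limma, near the 8.72% and 7.05% of all genes. PTPN6 rose by 0.32 (adjusted p = 0.0249) and TRIM6 fell by 0.44 (0.00446) in limma, while SOCS1 was at 0.22 (0.129). PTPN6 was called in 6 of 10 settings and was at 0.03 with the mean over its detected probes (adjusted p = 0.85 in limma). TRIM6 was called in 7 of 10 settings and was at -0.11 without normalization (adjusted p = 0.777 in limma). Plasmacytoid dendritic cells, a main source of type I interferon, had 0 of 4 tested markers called for the diet. With 8.72% of all genes rising and 7.05% falling, 0 of 4 is near these shares and shows nothing about these cells. Their defining marker CLEC4C was detected on 1 array only, and LILRA4 was at 0.16 in NSLC and 0.04 in HSLC.

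Genes best known as targets of interferon gamma were tested beside the type I genes. In limma 10 of 13 rose on high sodium and 0 fell, where 8.72% and 7.05% of all genes did, and 6 to 11 rose over the settings. The largest were CXCL10, a T cell chemokine, at 0.99 (adjusted p = 4.81e-05) and UBD, a ubiquitin-like protein, at 1.36 (0.00134). UBD was not called without the detection filter (adjusted p = 0.0902 in limma). IFNG itself read between 73.9 and 82.7, close to the array medians, and IFNGR1 was at 0.22 in NSLC and 0.31 in HSLC. The cytotoxic T cell marker CD8A rose by 0.73 (adjusted p = 0.000268 in limma), but it was 1 of 2 called among 7 tested T and NK markers. On the diet ratio 3 of these 7 were above 0 in NSLC and 4 in HSLC. Of all detected genes 56.4% were above 0 in NSLC and 52.6% in HSLC. Summed neutrophil markers read 3132 in HSLC on high sodium against 860 to 956 on the other arrays. The part of these cells in the gamma list was not tested, nor was the difference between the type I and the gamma list.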

How the data were processed

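Kidney RNA was extracted with Trizol, cleaned on RNeasy columns and labelled with the Illumina TotalPrep kit, per the labels. The authors deposited linear intensity values for 48702 probes on each of 4 arrays, processed in BeadStudio per the submitters' processing notes. Their background correction, scaling and pooling are not stated. In a second value table, the series matrix, probes were ordered nearly as in these values (lowest rank correlation 0.999 across probes of an array), and it has equal means within a phenotype. Its background correction and scaling are unknown, and its columns' medians are 94.1, 72.0, 72.8 and 68.4.

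The intensities, without 1 probe listed at 0, were corrected by normexp with an offset of 50, quantile-normalized and taken to log2 (limma 3.58.1, R 4.3.3). The offset compresses ratios of dim genes. Of the probes, 23687 carried 1 symbol, and each gene took its probe of highest mean signal. The additive limma fit covered 11909 genes, with Benjamini-Hochberg adjustment and a threshold of 0.05, and was tested on simulated data. Ratios used a 2-fold size rule, which is no test. The number of arrays limits the precision.

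The members, the lists and the rules were chosen with earlier results of these data known. Genes were named by size of ratio within each list, up to 6 for the wider interferon and interferon gamma lists, 4 for other pathway lists and 3 for marker lists, with all members and the 8 nearest profiles. Not every marker list is described in the text.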

Additional observations from a re-analysis of the deposited data

Results flagged for a closer look

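ISG15 had diet ratios of opposite sign in the phenotypes, 0.24 in NSLC and -0.82 in HSLC, a difference of -1.06 on the log2 scale. IFIT1 had them too, at -0.08 in NSLC and 0.26 in HSLC, a difference of 0.34, and these opposite signs were present in 3 of 7 scalings. In the other 4 the NSLC ratio was above 0 as well: 0.46 without normalization, 0.41 with median scaling, and 0.28 and 0.013 from the series matrix, as deposited and renormalized. With 1 array in a group neither difference was tested.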

How the results depend on the processing

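Among the members only ISG15 was past 2-fold in the main setting, on low sodium and in the difference of the diet ratios, and neither value changed sign. Some smaller ratios did change sign over the settings. The NSLC diet ratio ran from -0.09 to 0.46 for IFIT1 and from -0.09 to 0.30 for IFI27. The phenotype ratio of OAS1 on high sodium ran from -0.11 to 0.16. Others, such as the phenotype ratios of IFI27, kept their sign. The median ratio of the detected members moved to 0.46 without normalization for the diets in NSLC, to -0.32 with the series matrix as deposited for the phenotypes on low sodium, and to -0.18 without normalization on high sodium. For the difference of the diet ratios its values were -0.11 (no normalization) and -0.045 (median scaling), and ISG15 there stayed short of 2-fold (0 members lower) under cyclic loess and both uses of the series matrix. At 1.5-fold, 1 member was lower on high sodium in NSLC (OAS1) and 1 in HSLC (ISG15). In limma the count of members that rose with the diet was 2 under median scaling, and 0 under cyclic loess, the series matrix as deposited or no detection filter. The count that fell was 0 for unnormalized values, median scaling or the mean over probes. For the phenotype, members higher numbered 0 without the detection filter, and members lower 0 there and for unnormalized values, median scaling, cyclic loess or the mean over probes. The cause was not tested. Over all 11909 genes, those that fell with the diet numbered 839 in the main setting, 37 without normalization and 73 with median scaling, and those that rose 1039, 1059 and 1763. Normalizing without the HSLC low sodium array, added after seeing the data, moved no member by more than the spread between probes. That setting gives only the diet ratio in NSLC and the phenotype ratio on high sodium. The comparisons that use the left-out array, the low sodium ratio of ISG15 among them, could not be checked by it. No paired analysis was possible because each group has 1 array.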
